A study of Mus musculus with 12 samples.

Results

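Colonies of dental epithelial cells that lacked both Bmi1 and the Ink4a/Arf locus (double null) were compared with colonies that lacked Bmi1 alone (Bmi1 null). Arrays were chosen by title: the 4 arrays labelled Bmi1Ink4a against the 4 labelled Bmi1, so 8 of the 12 arrays of the series were used. The other 4 arrays are of wild-type colonies. Every array held RNA of 1 single colony grown in culture from epithelium of the labial cervical loop, the stem cell niche of the continuously growing mouse incisor. Both groups carry the Bmi1 mutation (genotype Bmi1-), and the double null group carries the Ink4a/Arf mutation as well (genotype Bmi1-;Ink4a/Arf-), both on a mixed genetic background. The comparison asks what the Ink4a/Arf locus contributes to the transcripts of cells without Bmi1. The sources give neither the age nor the number of the animals, and p-values therefore describe how far single colonies vary, which may be less than animals do.

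Bmi1 is a subunit of Polycomb repressive complex PRC1, which keeps target genes silent, and the Ink4a/Arf locus (gene Cdkn2a) is its best known target. The locus encodes 2 unrelated proteins from overlapping reading frames. Ink4a blocks the cyclin D kinases Cdk4 and Cdk6, which keeps the Rb protein bound to E2f factors and S phase genes off, while Arf holds back Mdm2, the ubiquitin ligase that destroys p53, so that p53 can switch on inhibitors of division such as Cdkn1a. In many tissues the loss of Bmi1 depletes stem cells through this locus, and deleting the locus restores part of their growth.

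Throughout, a level is a probe's background-subtracted signal on the log2 scale, less the 75th percentile of its array, given as mean ± SD (n = 4 colonies per genotype). A difference is double null minus Bmi1 null on that log2 scale with its SE. A gene was called where the limma adjusted p (Benjamini-Hochberg over all 26203 genes fitted) was under 0.05. Levels of different probes are not comparable with each other. In RNA of whole colonies, fewer cells of a kind and less RNA per cell cannot be told apart.

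The genotypes also differed in the sex of the cells. Median signals ranged from 82.9 to 190.2 on the Bmi1 null arrays and from 63.4 to 150.5 on the double null arrays, with a local background between 17 and 23. Of the spots, 82.5% ± 3.5 and 80.1% ± 5.56 were well above background. Double null array 1 had 1336 spots (3.08%) that the scanner software marked as outliers and that were left out, against 55 to 132 on each of the other 7. Spearman correlations of array pairs, taken across genes that are no independent replicates, ran from 0.952 to 0.977 among Bmi1 null arrays, 0.954 to 0.973 among double null arrays and 0.929 to 0.962 between the genotypes. Xist, the RNA of the inactive X chromosome, lay at 0.49 to 1.22 on all 4 Bmi1 null arrays and at -8.16 to -3.78 on the double null arrays, and the mean of the Y-linked genes ran from -7.03 to -6.59 and from -1.26 to -0.84. The RNA was thus that of female cells in every Bmi1 null colony and of male cells in every double null colony, and genotype and sex cannot be told apart here (r = 0.9983 between the Y-linked level and the genotype). Genes on X and Y are therefore not reported. Among the 8 arrays compared, slides 1 and 5 held 1 genotype each. Slide 2 held Bmi1 null 2 and double null 3, and slide 4 held Bmi1 null 3 and double null 1 and 4. The wild-type arrays had a narrower spread of signal (interquartile range 2.56 ± 0.06 on the log2 scale, against 4.52 ± 0.18 and 4.69 ± 0.36) and did not enter the fit.

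Cdkn2a was examined first, since it checks the labels. Its probe, on chromosome 4, lay at -4.14, -4.06, -3.96 and -4.45 in Bmi1 null colonies 1 to 4 and at -7.86, -7.50, -7.11 and -7.80 in double null colonies 1 to 4. The groups did not overlap: all 4 Bmi1 null arrays showed the probe well above background, against 0 of 4 double null and 0 of 4 wild-type arrays. The locus was at least 2.53-fold lower in double null colonies (limma adjusted p = 0.00032). That bound sets the Bmi1 null mean against the lowest signal that counted as well above background on each double null array. The signal was dim even where it was detected, at 51.5, 43, 40 and 18 units on the Bmi1 null arrays, and 2.25 to 3.54 on the double null arrays. In the authors' processed value table the difference was -0.90, also called. A background correction that adds 50 units to every signal (normexp) ended the call, with a difference of 0.10. Whether the single probe lies in the deleted part is not given, and it does not tell Ink4a from Arf.

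Bmi1 itself is mutated in both groups. Its probe lay at -2.42, -2.42, -2.46 and -2.14 in Bmi1 null and at -2.44, -2.32, -2.60 and -2.79 in double null colonies, well above background on all 8 arrays. The ranges overlapped and the difference of -0.18 ± 0.18 was not called (limma adjusted p = 0.642).

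Among the other cyclin-dependent kinase inhibitors, the p53-driven inhibitor p21 and its relative p57 fell, while the 3 remaining Ink4 family members did not pass the test. Of 7 inhibitors tested, 0 rose and 3 fell (Cdkn2a, Cdkn1a and Cdkn1c). Over all 15027 autosomal genes tested the share called was 5.36%, with 2.86% higher and 2.50% lower. Cdkn1a (p21), which p53 induces and which stops the cycle, lay at 4.41, 4.71, 4.76 and 4.56 in Bmi1 null and at 3.57, 3.09, 3.32 and 3.81 in double null colonies. Every double null colony was below every Bmi1 null colony, and the gene fell 2.23-fold (difference -1.16 ± 0.21, limma adjusted p = 0.0176). Its call ended without Bmi1 null 3, Bmi1 null 4 or double null 3, at differences between -1.28 and -1.04. Cdkn1c (p57), an imprinted inhibitor, lay at 0.90, 2.12, 1.93 and 1.77 and at -0.45, -0.41, -0.63 and -0.29. The double null colonies lay close together below all Bmi1 null colonies, and Cdkn1c fell 4.37-fold (-2.13 ± 0.27, limma adjusted p = 0.00638).

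Cdkn2b (p15), the neighbour of Cdkn2a and an inhibitor of the same kinases, went the other way without passing the test. It lay at 2.81, 2.74, 3.03 and 2.81 in Bmi1 null and at 3.18, 3.69, 3.25 and 3.58 in double null colonies. The ranges did not overlap, but the difference of 0.58 ± 0.19 had an adjusted p of 0.113 in limma. Cdkn2c (p18), Cdkn2d (p19) and Cdkn1b (p27) had differences of 0.04, 0.67 and 0.25 with adjusted p from 0.236 to 0.945.

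**Figure D1:**
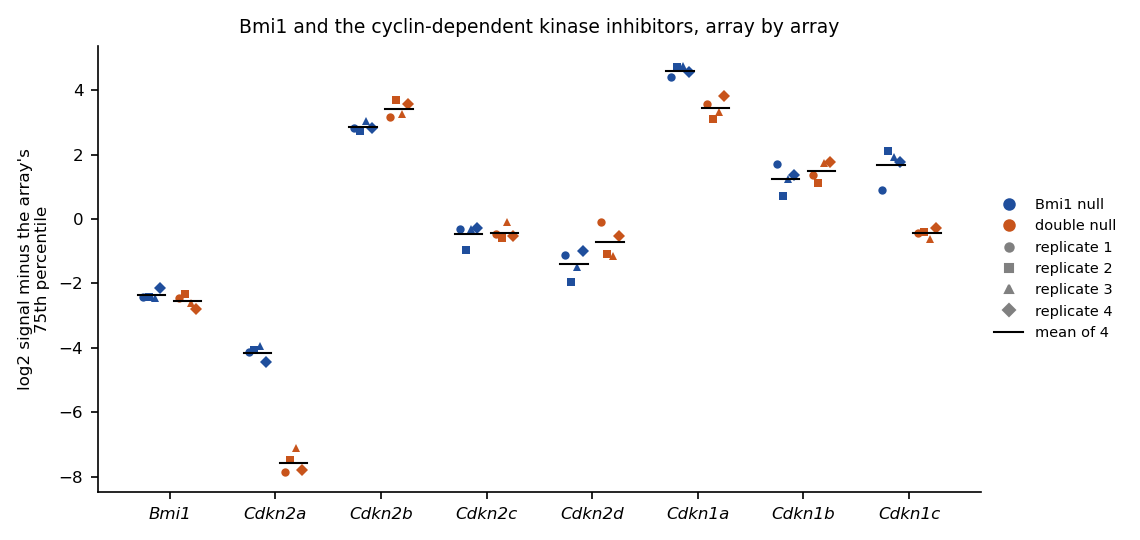
Levels of Bmi1 and of the 7 cyclin-dependent kinase inhibitors on each of the 8 arrays (vertical axis, log2 level; 1 symbol per replicate colony, bar at the mean of 4). Bmi1 overlaps between the genotypes, while the double null points lie below all Bmi1 null points for Cdkn2a, Cdkn1a and Cdkn1c and above them for Cdkn2b.

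Over all autosomal genes, 806 were called, of which 430 were higher and 376 lower in double null colonies (53.3% higher), and 318 and 303 of them differed by at least 2-fold. With each array scaled on its median 504 were higher and 290 lower (63.5% higher). The median difference of all genes was -0.024, with quartiles of -0.316 and 0.280. The 4 colonies of one genotype lay apart from the 4 of the other in 2595 genes (17.3%). With the slide as a block, which leaves 3 residual degrees of freedom, limma called 5 genes, among them Cdkn2a and Lgi2. At an unadjusted p under 0.05 it called 2659, against 3319 without the block. Nearly all calls below thus ended in that fit. With the slide as a random effect (correlation within slides 0.03), limma called 813 genes and kept 800 of the 806. That second fit also draws on slides that held 1 genotype each, where slide and genotype cannot be told apart. All 806 called genes kept their sign within slide 2 and within slide 4. As they were called from these same arrays, their signs were largely fixed in advance and say nothing on a slide effect. The count also fell by more than 1.5 times when 1 colony was left out: 420 genes were called without Bmi1 null 2, 308 without Bmi1 null 3, 249 without Bmi1 null 4, 394 without double null 2 and 227 without double null 3. All 806 kept their sign in each of these fits, which reuse the arrays of the calls, so that this too was largely fixed in advance. The sign was kept by 804 in a fit of all 12 arrays and by 782 with normexp correction, with which 374 were called.

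Genes of DNA replication rose together. Of 58 S phase genes listed, 56 were tested, and 24 rose and 0 fell (42.9%, against 5.36% of all genes). The median difference of the 56 was 0.79, against -0.024 for all genes, and 54 of them had a positive difference. Pcna, the sliding clamp that holds DNA polymerase on its template, lay at 2.94, 2.69, 2.58 and 2.86 in Bmi1 null and at 3.98, 3.80, 4.18 and 3.92 in double null colonies. The lowest double null colony was above the highest Bmi1 null colony, and Pcna rose 2.30-fold (1.20 ± 0.18, limma adjusted p = 0.0096). The enzymes that supply thymidine nucleotides moved further. Thymidine kinase (Tk1), which salvages thymidine, lay at 1.78 ± 0.43 and 3.38 ± 0.13 and rose 3.03-fold (adjusted p = 0.0096). Thymidylate synthase (Tyms), which makes thymidylate anew, rose 2.96-fold (adjusted p = 0.00813). Dut, which keeps uracil out of DNA, lay at 0.34, -0.17, 0.31 and 0.35 in Bmi1 null and at 1.96, 1.55, 2.08 and 1.58 in double null colonies and rose 3.0-fold (adjusted p = 0.00779). These 4 genes were called in each of the 8 fits that left out 1 colony.

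The remaining S phase genes that rose act at each step of replication. Those of the Mcm helicase were Mcm2 (0.89), Mcm4 (0.76), Mcm5 (1.26) and Mcm6 (1.18), and Mcm10 (0.94), which acts with that helicase, rose as well. Cdc45 (0.99) and Gins2 (0.79) activate that helicase, Prim2 (0.73) makes primers and Pole2 (1.05) belongs to the leading strand polymerase. Fen1 (1.21) and Lig1 (1.13) join Okazaki fragments, Rfc1 (1.10) loads Pcna, and Rpa1 (0.84) and Rpa2 (1.39) coat single strands. Uhrf1 (1.29), which brings the maintenance DNA methyltransferase to new DNA, and Nasp (1.14), a histone chaperone, were also called. Clspn, the fork protein that activates the checkpoint kinase Chek1, had the largest difference at 1.64 ± 0.37, but its call (adjusted p = 0.0389 in limma) ended without any of Bmi1 null 3, Bmi1 null 4 and double null 1, 2 or 3. Msh6, a mismatch repair gene, went against the list at -0.52 and was not called. Fewer S phase genes were called higher without some colonies: 11 without Bmi1 null 2, 3 or 4, 15 without double null 1, 13 without double null 2 and 7 without double null 3.

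Genes of the G2 phase and mitosis rose as well. Of 74 listed, 70 were tested, and 32 rose and 2 fell (48.6%), with a median difference of 0.89 and a positive difference in 68. Cdk1, the kinase that starts mitosis, lay at -0.91, -0.83, -0.54 and -0.50 in Bmi1 null and at 0.53, 0.27, 0.66 and 0.09 in double null colonies. All double null colonies were higher, and Cdk1 rose 2.12-fold (1.08 ± 0.20, limma adjusted p = 0.0202). The call ended without Bmi1 null 2 or double null 3 and when the gene's probes were averaged, at differences from 0.90 to 1.18. Mki67, the antigen of the Ki-67 proliferation stain, lay at 0.75, 0.31, 0.37 and 0.14 and at 1.76, 1.61, 1.57 and 1.42. The groups were again apart, by a rise of 2.29-fold (1.20 ± 0.19, adjusted p = 0.0127). Ckap2l, a protein of the spindle poles, lay at -2.58, -3.01, -2.70 and -3.21 and at -0.13, -1.01, -0.14 and -0.95. It rose 4.99-fold (2.32 ± 0.27, adjusted p = 0.00448). The mitotic kinase Pbk had the largest rise of the list, 5.12-fold, from -2.76 ± 0.48 to -0.40 ± 0.40 (adjusted p = 0.00575).

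The called G2/M genes reach from entry into mitosis to the division of the cell. They include cyclin A2 (Ccna2, 1.20) and the phosphatases Cdc25b (1.78) and Cdc25c (1.32), which activate Cdk1. Of the spindle checkpoint, Bub1 (1.15), Bub1b (1.36), Mad2l1 (1.49) and Ttk (1.0) rose, and of the kinetochore Ndc80 (1.46), Nuf2 (1.44), Cenpa (0.91) and Cenpf (1.47). Aurora kinases A and B (Aurka, 0.99; Aurkb, 1.28) and their partners Birc5 (1.04) and Cdca8 (1.09) rose, as did the DNA topoisomerase Top2a (1.59), and Racgap1 (1.85) and Kif23 (1.32) of the central spindle. Racgap1 was not called without double null 3, at a difference between 1.61 and 2.12.

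The 2 members of that list that fell are Gtse1 and Psrc1, both first described as genes that p53 induces. Gtse1 lay at 0.04, -0.65, -0.42 and 0.04 in Bmi1 null and at -1.31, -2.34, -1.86 and -2.74 in double null colonies, a fall of 3.51-fold (adjusted p = 0.0176 in limma). It was not called without Bmi1 null 4 or double null 3, at differences from -2.06 to -1.58. Psrc1, a microtubule protein, had a difference of -1.62 (adjusted p = 0.00605). The number of G2/M genes called higher was 20 without Bmi1 null 2, 19 without Bmi1 null 3, 16 without Bmi1 null 4 and 11 without double null 3, and that called lower was 1 without Bmi1 null 4 and 1 without double null 3.

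The transcription factors that drive these genes moved only in part. Of 21 genes of the Rb, E2f and DREAM system, 3 rose and 1 fell (19%). E2f2, an activator of S phase genes, lay at -0.15, -0.61, -0.90 and -1.28 in Bmi1 null and at 0.92, 0.84, 1.34 and 0.62 in double null colonies. It rose 3.18-fold (1.67 ± 0.27, limma adjusted p = 0.0133) and was called in each fit that left out 1 colony. Mybl2 (1.28, adjusted p = 0.0303) and Foxm1 (1.08, adjusted p = 0.0282), activators of G2/M genes, rose as well. Mybl2 lost its call in 7 of the 8 fits without 1 colony (all but that without double null 4), and Foxm1 in 6 of 8 (all but those without Bmi1 null 4 or double null 4). Mybl1, a relative of Mybl2 best known from male germ cells, fell by 1.91 on the log2 scale (adjusted p = 0.0176; not called without Bmi1 null 4 or double null 3, nor with normexp correction, at -0.42). E2f1 (0.31, adjusted p = 0.397) and Rb1 (-0.10) were not called. Neither were the kinases that Ink4a inhibits, Cdk4 (0.49, adjusted p = 0.282) and Cdk6 (-0.18, adjusted p = 0.702), nor cyclin E1 (Ccne1, -0.14) and cyclin D2 (Ccnd2, -0.48). Cyclin E2 (Ccne2) was the 1 member called of 12 cyclins and kinases of the G1 phase, at 1.0 (adjusted p = 0.0195; not called without Bmi1 null 3, Bmi1 null 4 or double null 3).

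The start regions of 4 genes that rose are shown because E2f and the DREAM complex act on many cell cycle genes through short motifs. They were chosen for holding matches, and the regions of Tk1, Tyms and Mybl2, which rose as well, hold none. The 250 bases before the start of transcription were taken from RefSeq (GRCm38.p6) and searched on both strands for CCAAT, for the CHR motif (TTTGAA or TTCGAA), and for an E2F motif (TTTCCCGC, TTTCGCGC, TTTGCCGC or TTTGGCGC). Capitals mark the matches, and a match on the other strand reads as its reverse complement (ATTGG for CCAAT and TTCAAA for TTTGAA). None of these motifs contains another. A match describes the letters and is not a binding site. Each region is on the minus strand and is written 5′ to 3′ along the gene.
Cdk1, chr10:69352913-69353162: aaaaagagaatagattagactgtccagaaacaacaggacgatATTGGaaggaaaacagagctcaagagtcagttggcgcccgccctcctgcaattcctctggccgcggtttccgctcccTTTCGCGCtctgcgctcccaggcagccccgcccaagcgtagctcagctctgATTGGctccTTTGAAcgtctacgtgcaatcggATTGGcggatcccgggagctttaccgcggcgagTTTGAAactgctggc
Mki67, chr7:135716380-135716629: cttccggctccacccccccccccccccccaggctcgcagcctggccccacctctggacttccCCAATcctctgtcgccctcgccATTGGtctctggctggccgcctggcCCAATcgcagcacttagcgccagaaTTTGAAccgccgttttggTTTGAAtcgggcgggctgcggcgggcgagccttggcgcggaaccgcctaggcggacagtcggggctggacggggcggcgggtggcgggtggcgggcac
Ckap2l, chr2:129297213-129297462: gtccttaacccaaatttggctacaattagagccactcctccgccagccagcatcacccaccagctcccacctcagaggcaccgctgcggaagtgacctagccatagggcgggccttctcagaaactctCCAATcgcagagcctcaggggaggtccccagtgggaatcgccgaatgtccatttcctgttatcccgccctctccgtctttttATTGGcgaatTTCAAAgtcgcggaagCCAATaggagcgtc
Pcna, chr2:132253181-132253430: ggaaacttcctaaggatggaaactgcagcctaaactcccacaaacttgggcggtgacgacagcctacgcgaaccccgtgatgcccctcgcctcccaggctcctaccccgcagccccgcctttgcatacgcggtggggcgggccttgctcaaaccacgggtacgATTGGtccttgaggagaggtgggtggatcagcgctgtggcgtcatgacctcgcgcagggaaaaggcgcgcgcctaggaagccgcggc
Cdk1 has 1 E2F match 131 bases before the start, CHR matches at 71 and 15 and CCAAT matches at 208, 80 and 48. In Mki67 the CHR matches lie at 116 and 98 and the CCAAT matches at 188, 166 and 141. Ckap2l has a CHR match at 30 and CCAAT matches at 122, 40 and 14, and Pcna a single CCAAT match at 87.

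Across the lists, the motifs were spread as follows. Of the 11958 tested genes with a start region in RefSeq, 3.12% held an E2F match, 16.2% a CHR match, 39.5% a CCAAT match and 6.90% both CHR and CCAAT. Of 59 G2/M genes with a region, 6.78% held E2F, 39.0% CHR, 71.2% CCAAT and 35.6% both. Among the 45 S phase genes these shares were 22.2% for E2F, 22.2% for CHR and 62.2% for CCAAT. The 27 G2/M genes that rose and had a region held both CHR and CCAAT in 25.9%, and the 19 S phase genes that rose held E2F in 15.8%, both lower shares than in the full lists. In the 32 p53 target genes with a region the shares were 0% for E2F, 9.38% for CHR and 56.2% for CCAAT, and in 54 ribosomal protein genes 1.85%, 7.41% and 27.8%.

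Genes that work beside the replication fork gave fewer calls. Of 33 genes of homologous recombination and Fanconi repair, which mend broken and crosslinked DNA, 5 rose and 0 fell (15.2%), with a median difference of 0.52. The rises numbered 3 without Bmi1 null 1 or double null 4, and 1 without any other single colony or with normexp correction. Brca1 lay at -1.36, -0.83, -1.34 and -1.57 in Bmi1 null and at 0.26, 0.30, 0.12 and -0.03 in double null colonies. The groups did not overlap and Brca1 rose 2.71-fold (limma adjusted p = 0.00938), also in each fit without 1 colony. Its partner Bard1 (1.81, adjusted p = 0.0325) was lower in double null 4 (-3.82) than in the other 3 double null colonies (-2.62 to -2.55), and its call held only in the fit without that colony. Of 28 replication-dependent histone genes tested, 4 rose and 0 fell (14.3%; 1 to 3 without 1 colony), with a median difference of 0.70, led by the linker histone H1f1 (1.55, adjusted p = 0.0133).

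The targets of p53 moved the other way. Of 42 genes listed for growth arrest, DNA repair and feedback on p53, 39 were tested, 0 rose and 15 fell (38.5%). The median difference was -0.57, 6 of the 39 had a positive difference, and in 18 every double null colony was below every Bmi1 null colony. Over all genes the groups lay apart, in either direction, in 17.3%. Mdm2, both a target of p53 and its main inhibitor, lay at 2.82, 3.04, 2.85 and 2.98 in Bmi1 null and at 1.80, 0.99, 1.52 and 0.97 in double null colonies. The Bmi1 null colonies lay within a narrow band above all double null colonies, and Mdm2 fell 3.04-fold (-1.60 ± 0.23, limma adjusted p = 0.00919). Btg2, which slows division, lay at 4.64, 4.74, 5.29 and 4.77 and at 3.53, 2.99, 3.68 and 3.38, a fall of 2.75-fold (adjusted p = 0.0111). Trp53inp1, a stress protein that acts back on p53, lay at 6.34, 6.35, 6.98 and 6.95 and at 5.43, 4.83, 5.34 and 5.15. It fell 2.76-fold (adjusted p = 0.0124). Cpt1c, a member of the carnitine palmitoyltransferase family, fell most, 5.33-fold on its brighter probe, from 3.95 ± 0.19 to 1.53 ± 0.52 (adjusted p = 0.00374). Its other probe had a difference of -1.17, against -2.42 on the brighter one. These 4 genes were called in each fit without 1 colony.

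The other p53 targets that fell act in several ways. Ccng1 (-1.21) encodes cyclin G1, Sesn2 (-0.99) and Ddit4 (-0.94) restrain mTOR, Polk (-1.31) is a polymerase that bypasses DNA lesions, and Ercc5 (-1.21) cuts DNA in nucleotide excision repair. Plk2 (-1.24) is a stress-responsive kinase, Slc19a2 (-1.37) a thiamine transporter, Ephx1 (-0.91) an epoxide hydrolase, and Rap2b (-1.23) a small GTPase. Xpc, which recognises damaged bases, went against the list at 0.42 and was not called (adjusted p = 0.22). The count of targets called lower was 9 without Bmi1 null 3, 9 without Bmi1 null 4 and 9 without double null 3.

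Death genes among the p53 targets were counted separately. Of 24 tested, 1 rose and 2 fell (12.5%), with a median difference of -0.41. The death receptor Tnfrsf10b lay at 3.82, 4.04, 3.96 and 3.75 in Bmi1 null and at 2.94, 2.33, 2.78 and 2.08 in double null colonies and fell 2.56-fold (limma adjusted p = 0.0141). Fas, another death receptor, had a difference of -1.17 (adjusted p = 0.0261), and its call held in 1 of the 8 fits without 1 colony, that without double null 1. With normexp correction the difference of Fas was -0.03. Igfbp3, which binds insulin-like growth factors, rose 3.53-fold (adjusted p = 0.0184; not called without Bmi1 null 4 or double null 3). Bax, which permeabilises mitochondria, lay at 1.87, 1.96, 2.36 and 1.99 and at 1.54, 0.88, 1.44 and 0.69. The groups did not overlap, as in 17.3% of all genes, but the adjusted p of 0.0622 missed the threshold. Of 16 genes of the Bcl2 family 0 were called. With 5.36% of all genes called, 0 of 16 does not set this family apart. Trp53 itself had a difference of -0.002 ± 0.195 and was not called (adjusted p = 0.997).

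**Figure D2:**
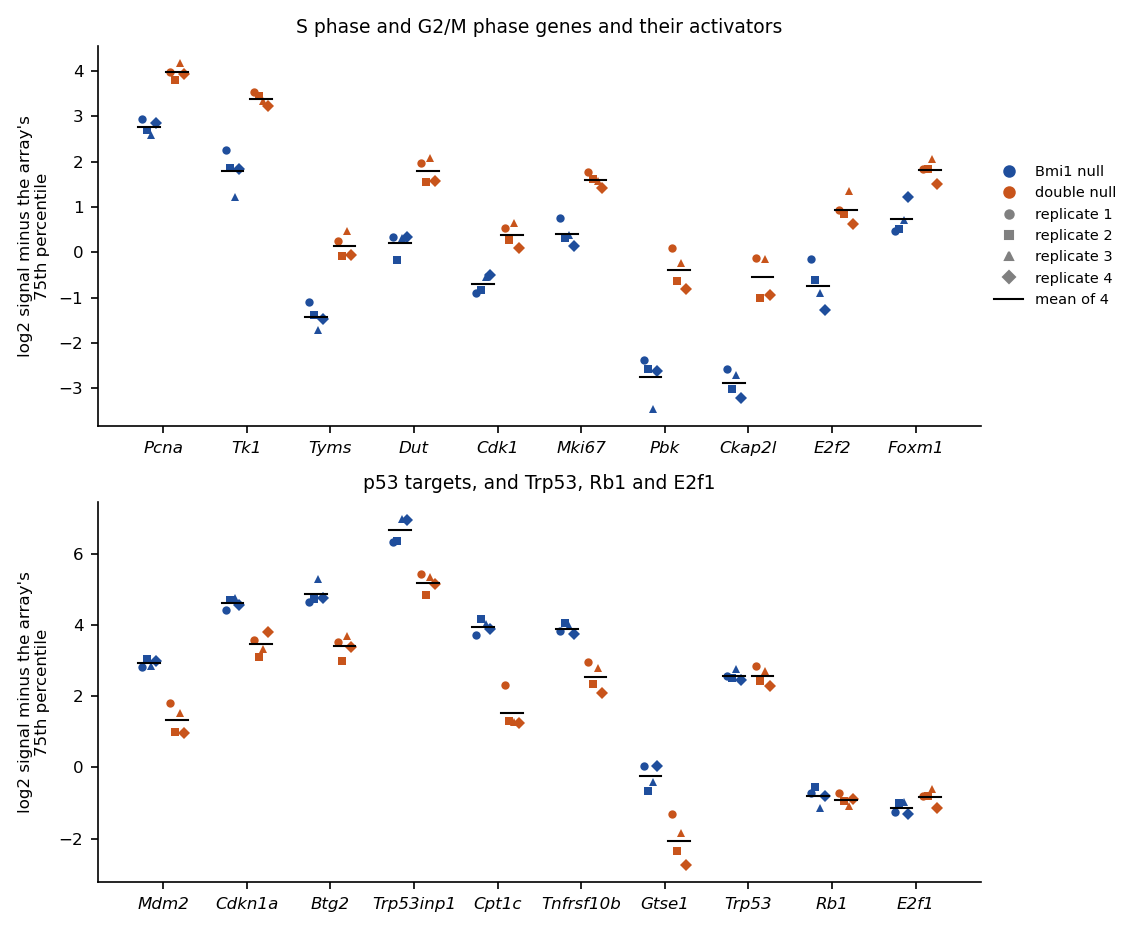
Levels on each of the 8 arrays (vertical axes, log2 level; 1 symbol per replicate colony, bar at the mean of 4) of cell cycle genes and their activators (top) and of p53 targets with Trp53, Rb1 and E2f1 (bottom). The double null colonies lie above the Bmi1 null colonies for the genes of the top panel and below them for the first 7 genes of the bottom panel, while Trp53, Rb1 and E2f1 overlap.

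**Figure D3:**
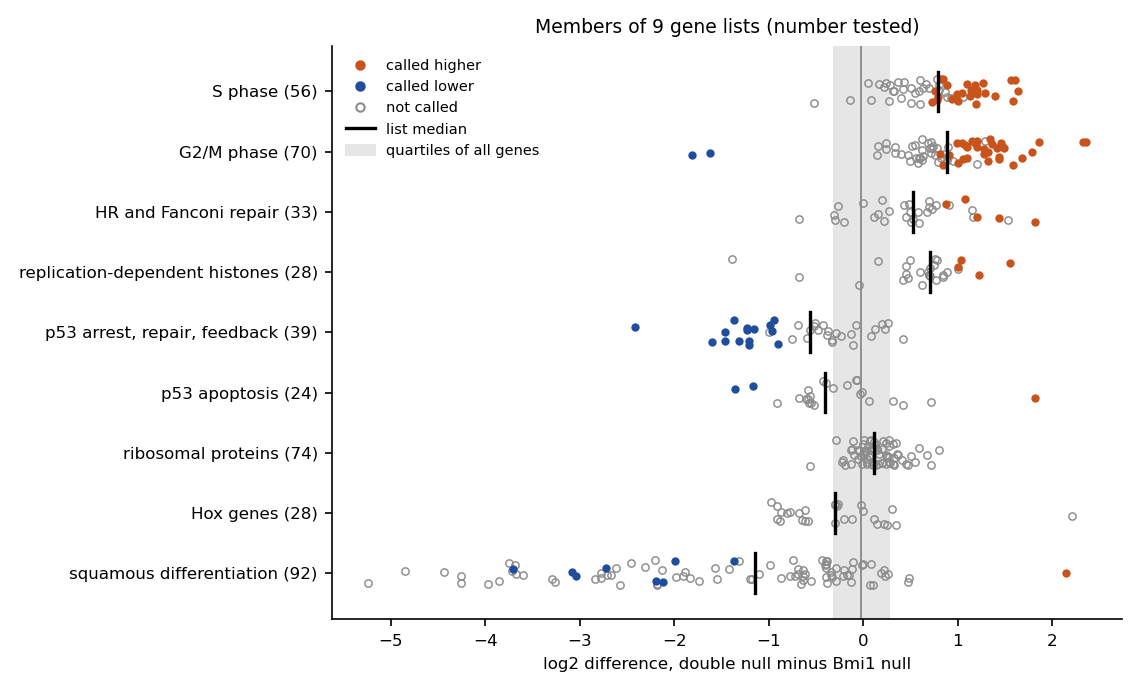
Difference between double null and Bmi1 null colonies (horizontal axis, log2) of every tested member of 9 gene lists, with 1 point per gene, a bar at the list's median and a grey band for the quartiles of all genes (-0.316 to 0.280). S phase and G2/M genes lie mostly right of the band and p53 arrest targets mostly left of it, while the 74 ribosomal protein genes lie close to it with a median of 0.12.

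Averaged over a list, the cell cycle and p53 groups separated the genotypes colony by colony, as did several other lists. The mean level of the 56 S phase genes was -0.10, -0.32, -0.27 and -0.18 in Bmi1 null and 0.75, 0.47, 0.63 and 0.35 in double null colonies. That of the 70 G2/M genes was -0.54, -0.61, -0.61 and -0.67 and 0.58, 0.10, 0.39 and 0.07. The 39 arrest targets of p53 lay at 1.48, 1.57, 1.62 and 1.57 and at 1.0, 0.83, 0.91 and 0.89. In each of these lists the 4 double null colonies lay on one side of the 4 Bmi1 null colonies. Double null 1 and 3 had the higher cell cycle levels within their genotype. Such a separation is not particular to these lists. Proteasome subunits ran from 3.01 to 3.15 in Bmi1 null and from 3.23 to 3.51 in double null colonies. Cholesterol and fatty acid genes (2.46 to 2.62 and 2.76 to 3.08) and desmosome genes (2.53 to 2.62 and 2.12 to 2.42) were also apart. Others overlapped, such as ribosomal proteins (4.86 to 5.29 and 4.97 to 5.36).

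Genes of squamous differentiation, the programme by which skin-like epithelium forms its cornified layer, set 1 double null colony apart. Of 113 listed, 92 were tested, and 1 rose and 8 fell (9.78%), although the median difference was -1.14. The mean level of the 92 was 2.13, 1.85, 1.97 and 2.29 in Bmi1 null colonies and -0.13, -0.08, -0.29 and 2.84 in double null colonies 1 to 4. Double null 4 was thus above every Bmi1 null colony, while the other 3 were below, and it was the highest double null colony in 78 of the 89 members measured on all 4. Without double null 4, 51 of the list were called lower, and without any single one of the other colonies 1 to 5. Sprr1b, a small proline-rich protein of the cornified envelope, lay at 3.16, 3.80, 3.79 and 3.70 and at 0.60, 0.08, 0.64 and 2.26. Its fall of 6.59-fold (limma adjusted p = 0.0117) was called in each fit without 1 colony. Cst6, a protease inhibitor of the cornified layer, lay at 3.64, 4.00, 4.23 and 3.89 and at 0.06, 0.40, 0.18 and 2.98 (-3.04, adjusted p = 0.0229), and its call held in 3 of 8 such fits. Corneodesmosin (Cdsn), which glues cornified cells, was called with all colonies (-3.70, adjusted p = 0.0307) and, of these fits, only without double null 4.

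Loricrin (Lor), the main envelope protein, shows the pattern of that colony plainly and was chosen after its values were seen. It lay at 5.80, 5.14, 4.81 and 6.19 in Bmi1 null colonies and at 0.58, 0.31, -1.70 and 5.72 in double null colonies. It was not called (adjusted p = 0.0926). The early differentiation keratins Krt1 and Krt10 were highest of all 8 arrays in double null 4, at 5.03 and 7.18. Alox12, a lipoxygenase of the epidermis, was the 1 member that rose (4.41-fold, adjusted p = 0.0176; not called without double null 3). Among 23 genes of desmosomes and hemidesmosomes 2 fell: Col17a1, a collagen that anchors basal cells (2.71-fold, adjusted p = 0.0164; not called without Bmi1 null 4 or double null 3), and Dsg4, a desmoglein of the hair and upper epidermis, which was at least 3.21-fold lower (0.17 and not called with normexp correction).

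**Figure D4:**
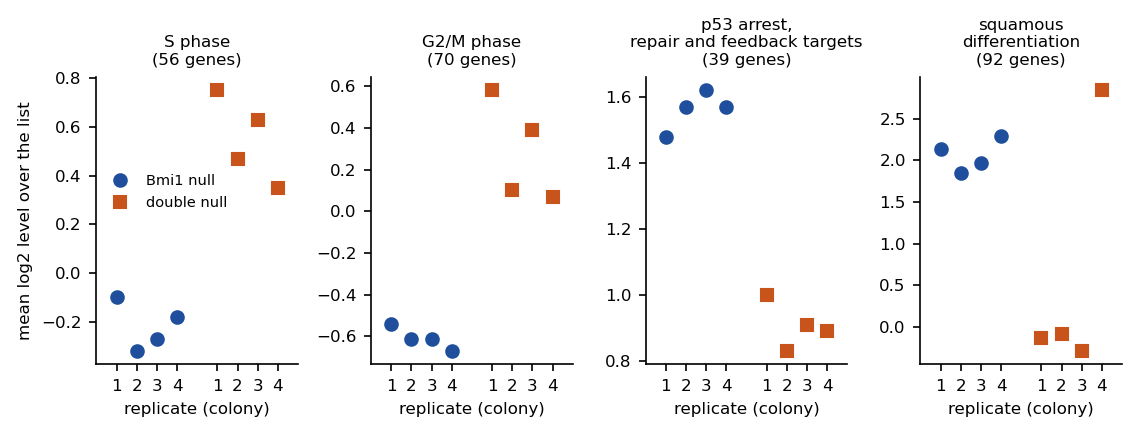
Mean log2 level (vertical axes) of 4 gene lists in each of the 4 Bmi1 null and 4 double null colonies (horizontal axes, replicate number). The genotypes are apart for S phase, G2/M phase and p53 arrest genes, while for squamous genes double null 4 (2.84) lies above all Bmi1 null colonies and double null 1 to 3 (-0.29 to -0.08) lie below them.

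Of 33 markers of incisor epithelial stem cells tested, 3 rose and 1 fell (12.1%), with a median difference of 0.06. Their mean level was 0.21, 0.26, 0.34 and 0.16 in Bmi1 null and 0.55, 0.69, 0.60 and 0.42 in double null colonies. These means do not overlap, but they include Igfbp5, whose difference is by far the largest, and their separation depends on it. Only 18 of the 33 markers had a positive difference, so the means do not show a rise of the markers as a set. Igfbp5, a binding protein of insulin-like growth factors, lay at -2.33, -1.79, -2.03 and -2.12 in Bmi1 null and at 1.28, 3.5, 1.73 and 4.88 in double null colonies. It rose 30.1-fold (limma adjusted p = 0.009), and double null 2 and 4 were well above double null 1 and 3. Igfbp4, of the same family, lay at -1.32, -0.40, -1.10 and -1.85 and at 1.18, 1.98, 1.29 and 0.60 and rose 5.38-fold (adjusted p = 0.0101). Lgr5, a Wnt-associated receptor that marks stem cells of many epithelia, lay at -5.08, -4.31, -4.34 and -5.05 and at -2.19, -2.13, -2.51 and -4.28. Double null 4 was near the Bmi1 null colonies, and the difference of 1.92 (adjusted p = 0.0488) was called, of the fits without 1 colony, only without double null 4. Cd44, a hyaluronan receptor, fell 1.86-fold (adjusted p = 0.0280; called in the fits without Bmi1 null 1 and without double null 1 but not in the other 6). Sox2 (0.32, adjusted p = 0.383) and Trp63 (0.06, adjusted p = 0.912), transcription factors of the niche and of basal epithelium, were not called.

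Markers of basal epithelium were well above background on every array of both genotypes. The keratins of basal cells stood at 8.60 ± 0.24 and 8.74 ± 0.50 for Krt14 and at 6.32 ± 0.32 and 6.42 ± 0.33 for Krt5, and E-cadherin (Cdh1) at a difference of -0.31, none of them called. Of 42 epithelial markers 5 rose and 2 fell (16.7%). Claudin 7 (Cldn7), a tight junction protein, lay at -0.64, -0.32, -0.83 and -0.51 and at 3.82, 2.78, 3.23 and 2.19. The groups were far apart, with a rise of 11.9-fold (limma adjusted p = 0.00163). Its partner Epcam rose 3.30-fold (adjusted p = 0.0202; not called without double null 3). Claudin 1 (Cldn1, 1.40) and Krt17 (0.85) rose, while Krt7 (-2.09) and Cldn23 (-1.97) fell. Krt7 was not called without Bmi1 null 3, Bmi1 null 4, double null 2 or double null 3, and Cldn23 was called only without double null 4. The markers that rose numbered 3 without Bmi1 null 3, 2 without Bmi1 null 4, 3 without double null 2 and 1 without double null 3.

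Markers of other cell types were counted next, beside the share of 5.36% called over all genes. Of 31 immune markers tested 0 were called by limma, and their mean level ran from -2.88 to -2.22 in Bmi1 null and from -3.04 to -2.40 in double null colonies. Ptprc, the pan-leukocyte antigen, was well above background on 3 and 2 of 4 arrays, and Adgre1 of macrophages did not pass the filter. Among 25 endothelial, neural and melanocyte markers 0 were called. Of 42 mesenchymal markers 1 rose and 2 fell (7.14%), and the mean level was -0.61, -0.50, -0.27 and -0.87 against -0.60, -0.23, -0.58 and 0.26, highest in double null 4. The collagen Col1a2 differed by 2.51 (adjusted p = 0.134) and vimentin (Vim) by 0.79, neither called. Tagln, an actin-binding protein of smooth muscle, rose 4.38-fold on its brighter probe (adjusted p = 0.0171; not called without double null 3), while its other probe had a difference of -0.28. The part of such cells in the results was not tested. Of 24 ameloblast markers tested 0 rose and 2 fell (8.33%), Msx2 (-1.57, adjusted p = 0.0421) and the chloride channel Ano1 (-1.23, adjusted p = 0.0377), and both calls ended with normexp correction, which left 0 called in the list. Without 1 colony, 1 was called lower without double null 2, 3 without double null 4 and 0 in the other fits. The mean level of these markers ran from -0.75 to -0.61 in Bmi1 null and from -1.07 to -0.83 in double null colonies, without overlap. The enamel matrix genes Ambn and Enam did not pass the filter.

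Genes of detoxification and oxidative defence contained some of the largest falls. Of 36 genes of the Nrf2 and glutathione list 0 rose and 5 fell (13.9%), with a median difference of -0.39. A positive difference was found in 11 of the 36. Txn1 went against the list at 0.80 and was not called (limma adjusted p = 0.0585). Nrf2 itself (Nfe2l2, -0.10), Gclc (-0.17) and Gclm (-0.005) were not called either, so the falls below do not stand for the whole list. Nqo1, a quinone reductase, lay at 2.15, 3.12, 3.54 and 4.27 in Bmi1 null and at -1.77, -1.28, -2.21 and -0.36 in double null colonies and fell 25.6-fold (limma adjusted p = 0.00318). Aldh1a1, which makes retinoic acid, lay at 3.86, 4.87, 5.03 and 5.22 and at -0.18, 0.28, -0.48 and 1.22. It fell 23.2-fold (adjusted p = 0.00163), and for both genes the ranges were several log2 units apart. Cyp1a1, the oxidase switched on through the aryl hydrocarbon receptor, lay at -3.26, -2.16, -2.51 and 0.52 and was well above background on 0 of 4 double null arrays. It was at least 12.4-fold lower (adjusted p = 0.00465), and normexp correction ended the call. Hmox1 (haem oxygenase, -1.50) and catalase (Cat, -1.16) fell as well. Hmox1 was not called without Bmi1 null 3, Bmi1 null 4, double null 2 or double null 3, at differences between -1.67 and -1.24.

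Of the signalling pathways that pattern the tooth, Hedgehog had 3 of 17 genes higher and 0 lower (17.6%). They are Hhip, an antagonist that Hedgehog signalling itself induces (3.87, adjusted p = 0.0199 in limma; 1.96 with normexp correction), and the co-receptors Gas1 (1.55, adjusted p = 0.0469) and Cdon (1.51, adjusted p = 0.0176). The Hhip probe cleared background on all 4 double null arrays but on 2 of the 4 Bmi1 null arrays, and its other probe had a difference of 2.20. Hhip was not called without Bmi1 null 4 or double null 3, Cdon not without Bmi1 null 3, Bmi1 null 4 or double null 3, and Gas1 was called only in the fits without Bmi1 null 1 or double null 1. Normexp correction ended the calls of Gas1 and Cdon. The standard targets Gli1 and Ptch1 were not called. In the Wnt pathway 4 of 53 rose and 3 fell (13.2%). The receptors Fzd1 (1.21, adjusted p = 0.0176), Fzd3 (0.96, adjusted p = 0.0449), Fzd4 (2.72, adjusted p = 0.0224) and Fzd7 (1.07, adjusted p = 0.0368) rose, while the ligands Wnt4 (-1.32, adjusted p = 0.0129), Wnt7b (-1.23, adjusted p = 0.0356) and Wnt10a (-2.64, adjusted p = 0.0184) fell. Without 1 colony the members called higher numbered 0 without Bmi1 null 3, 1 without Bmi1 null 2, Bmi1 null 4, double null 2 or double null 3, and 3 to 5 otherwise, and those called lower 1 to 4. Wnt4 was called in each fit without 1 colony. Wnt10a was not called without Bmi1 null 4 or double null 3, Fzd4 not without Bmi1 null 2, 3 or 4 or double null 2 or 3, and Wnt7b was called only in the fit without Bmi1 null 1.

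Of 19 genes of the insulin-like growth factor axis, 3 rose and 2 fell (26.3%). The 3 that rose are the binding proteins Igfbp3, Igfbp4 and Igfbp5, and among those that fell is the receptor substrate Irs1 (-1.51, adjusted p = 0.0233 in limma; not called without Bmi1 null 2, 3 or 4 or double null 2). Of 50 genes of the BMP and TGF-beta pathway 3 rose and 5 fell (16%). The BMP target Id1 lay at 0.82, 0.93, 1.44 and 1.80 in Bmi1 null and at -1.54, -1.56, -3.38 and -0.54 in double null colonies, a fall of 8.0-fold (adjusted p = 0.0176; not called without Bmi1 null 3 or 4). The ligand Bmp8a fell 13.2-fold (adjusted p = 0.00141; not called with normexp correction) and Tgfb2 fell by 1.72 on the log2 scale (adjusted p = 0.0257), while the antagonist Fstl1 rose by 2.03 (adjusted p = 0.0233). Tgfb2 was not called without Bmi1 null 2, 3 or 4 or double null 2 or 3, nor with normexp correction (-0.18), and Fstl1 not without Bmi1 null 2 or double null 2 or 3.

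Smaller groups moved as follows. Of 31 genes of cholesterol and fatty acid synthesis 4 rose and 0 fell (12.9%), among them the desaturases Scd1 (1.23) and Scd2 (1.38). Of 27 imprinted genes, Mest rose 3.48-fold (limma adjusted p = 0.00916, called in each fit without 1 colony) and Cdkn1c and Kcnq1ot1, the antisense RNA of the Cdkn1c cluster, fell. Cdkn1c was called in each fit without 1 colony, and Kcnq1ot1 (-1.04, adjusted p = 0.0454) only in that without double null 1. Among 38 genes of the senescence-associated secretion 4 rose and 2 fell (15.8%). The rises are Ccn2 and the binding proteins Igfbp3, Igfbp4 and Igfbp5, already counted above, and the falls are Ereg and Ptges. Of the 8 fits without 1 colony, Ccn2 was called in 6 and Ereg in 5. In antigen presentation, 1 of 22 rose and 2 fell, with Tap1, the peptide transporter, 2.70-fold lower (adjusted p = 0.0091). Of 30 Polycomb subunits 0 rose and 2 fell (6.67%, against 5.36% of all genes), Pcgf3 (-0.90) and Scmh1 (-1.09). Of the 8 fits without 1 colony, Pcgf3 was called only without Bmi1 null 2 and Scmh1 only without double null 1. Hox genes, the classical targets of Polycomb, had 0 calls among 28 tested, with a median difference of -0.30 (0.38 with normexp correction). With 5.36% of all genes called, 0 of 28 does not set this list apart. Part of the list was also dim. Of 36 Hox genes on the array 28 passed the filter, and 21 were well above background on every array of both genotypes. The list mean stayed between -3.47 and -2.81 on each array. Hoxa5 was not called (adjusted p = 0.0511). Its probe cleared background on 3 of 4 double null arrays and 0 of 4 Bmi1 null arrays. Ribosomal proteins had 0 calls among 74.

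Large rises outside the lists above were found in genes of varied function. Ccl11 (eotaxin), a chemokine that draws eosinophils, lay at -8.27, -7.81, -7.62 and -7.33 in Bmi1 null and at -3.17, -0.94, -1.90 and -0.10 in double null colonies. It was well above background on 0 and 4 of 4 arrays and was at least 17.3-fold higher (limma adjusted p = 0.00163). Angpt1, a ligand of the vessel receptor Tie2, rose by 4.41 on the log2 scale (adjusted p = 0.00386; double null 1 was marked as an outlier and left out, so n = 3 there). The membrane peptidase Mme (3.71, adjusted p = 0.0043), the synaptic protein Lgi2 (3.49, adjusted p = 0.00314) and the vasoconstrictor peptide Edn1 (3.47, adjusted p = 0.00939) also rose. Rbp4, the retinol carrier of blood, ranged widely in both genotypes, at -5.03, -5.78, -2.71 and -6.10 and at -2.22, 0.57, 0.48 and 1.15.

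Beside Nqo1, Aldh1a1 and Bmp8a, large falls were found in genes of varied function. The potassium channel Kcnj15 lay at 2.16, 2.43, 2.85 and 2.65 and at -0.52, -1.79, -1.76 and -1.89. It fell 16.1-fold (limma adjusted p = 0.001). Angptl7, a secreted angiopoietin-like protein, fell by 3.63 on the log2 scale (adjusted p = 0.00163), Efemp1, a matrix fibulin, by 3.92 (adjusted p = 0.0082), and the nuclear body protein Sp110 by 3.98 (adjusted p = 0.00925). Normexp correction ended the calls of Efemp1 and Sp110. Ptges, which makes prostaglandin E, lay at -0.60, 0.89, 1.40 and 2.76 and at -1.21, -2.83, -2.77 and -2.82 (adjusted p = 0.0209; not called without Bmi1 null 3, double null 2 or double null 3). Lyg1, a lysozyme-like gene, fell in double null 1 to 3 (-3.00 to -2.85) and not in double null 4 (1.25), so that its call (adjusted p = 0.0283) held, of the fits without 1 colony, only without double null 4.

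**Figure D5:**
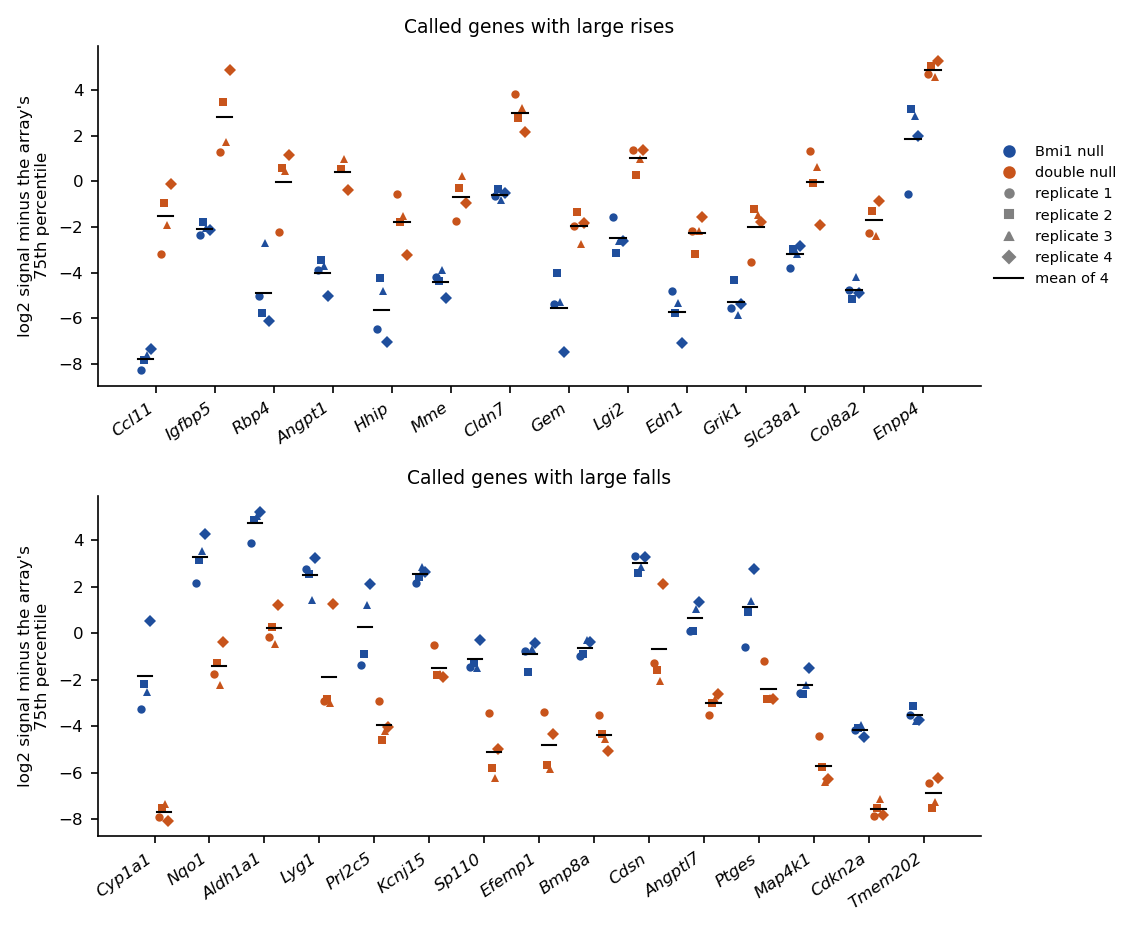
Levels on each of the 8 arrays (vertical axes, log2 level; 1 symbol per replicate colony, bar at the mean) of called genes with large rises (top) and falls (bottom) among genes whose groups do not overlap. Spread within a genotype is narrow for Kcnj15 and wide for Rbp4, Lyg1 and Cyp1a1.

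The called genes were spread over the autosomes. The share called per chromosome ran from 3.46% on chromosome 9 to 7.21% on chromosome 1. Around Cdkn2a on chromosome 4, 1 of the 20 nearest tested genes, 3 of the nearest 50 and 8 of the nearest 100 were called, and around Bmi1 0 of 20, 1 of 50 and 4 of 100. With 5.36% of all genes called, these small counts do not set either neighbourhood apart.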

How the data were processed

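Each colony's RNA went through whole transcriptome amplification and Cy3 labelling before hybridisation to a 1-colour Agilent whole mouse genome array, per the labels' protocols. The deposited files hold each spot's intensity from the scanner, which the authors extracted with Feature Extraction under protocol GE1_107_Sep09, per the file headers. The intensity used is the background-subtracted processed signal. The authors' deposited value table of the same arrays is on a log2 scale. How it was normalized is not stated, and it served as an alternative (r = 0.94 over genes with the differences used here, slope 0.699, 773 of 806 calls shared and 0 in the opposite direction).

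Of 43379 spots that are not controls, outlier-marked ones were set to missing, 0 were saturated, and spots of 1 of the 41174 probes were averaged. Log2 signals were set relative to the 75th percentile of their array. Probes well above background on at least 3 of the 4 arrays of 1 genotype were kept. Accessions were matched to RefSeq (GRCm38.p6), which gave 24844 probes 1 symbol and 16330 none. The brightest probe stood for a gene. Probe positions on mm9, the build in the headers, were not used. The fit (lmFit and eBayes of limma 3.58.1 under R 4.3.3, with 6 residual degrees of freedom) covered 26203 genes, of which 15027 autosomal ones are reported. The 522 genes on X and Y and 10654 genes that could not be placed are not.

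In a test on simulated data of 26203 genes, 27% of changes of 1 and 72% of changes of 2 on the log2 scale were called. The precision is limited by the number of arrays. For a gene above background in 1 genotype only, the change is given as a bound (at least N-fold), as 15 called genes have it.

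The members, the 39 gene lists, the tests and the rule for naming genes were chosen with earlier results of these data known. The rule named a fixed set of cell cycle, p53 and stem cell genes, the 15 largest called rises and 15 largest called falls without overlap, up to 4 called members per list and any Hox gene. Other called members of the lists are named beyond it, after their values were seen. Alternatives changed the scaling, background, filter, probe rule, spread estimate and blocks (slide, replicate number, Y-linked level), took all 12 arrays, or left out 1 colony. The normexp alternative used the spot medians with an offset of 50. Cyclin D1 was not analysed here, and 1 called gene that the rule names is not reported here.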

Additional observations from a re-analysis of the deposited data

Results flagged for a closer look

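A colony was singled out here where its value lay farther from the other 3 of its genotype than Dixon's test allows. Such gaps arise by chance in about 1 of 20 groups of 4. They were found in 20 of the 355 groups checked for named genes and in 2 of the 78 groups checked for list means.

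Double null 4 stood apart in the mean of the squamous list, at 2.84 against -0.29 to -0.08. Of the genes, it was high for Cst6 (2.98), Lyg1 (1.25), the homeobox gene Msx2 (-2.68, against -4.43 to -4.22) and Tagln (4.21), and low for Bard1 (-3.82) and the linker histone H1f5 (2.19). Double null 1, the array with 1336 outlier-marked spots, was high for Cpt1c (2.31), Kcnj15 (-0.52), Ptges (-1.21) and Xpc (-1.17) and low for the metalloproteinase inhibitor Timp3 (-0.34). Double null 2 was low for Sox2 (-0.72).

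Bmi1 null 4 stood apart in the mean of the G1 cyclins and kinases, at 1.54 against 1.35 to 1.38, and was high for Bmi1 (-2.14) and low for Epcam (1.99). Bmi1 null 2 was low for Cdkn2c (-0.97), Dut (-0.17) and Hoxb13 (-2.66) and high for Hoxa2 (-2.82). Bmi1 null 1 was low for Sprr1b (3.16) and high for the FGF target Etv5 (-0.37).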

How the results depend on the processing

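The counts of genes called higher and lower (430 and 376) were 223 and 173 with normexp correction, 1063 and 735 in the authors' table, 832 and 625 with a trended, robust estimate of spread, 247 higher without a filter and 612 lower with all 12 arrays. Normexp moved the median difference of all genes to 0.178. They were 1 and 4 with the slide as a block. Leaving out 1 colony gave 109 to 332 higher and 118 to 475 lower. With the Y-linked level as a covariate limma called 0 and 0 (569 at an unadjusted p under 0.05). That covariate runs with genotype, so its gene values are not used. With the replicate number as a block the counts were 142 and 136. The numbers do not pair the colonies, since same-numbered colonies correlated at -0.093 to 0.231 and 2 of 4 correlated best with their own number.

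For the lists, S phase genes called higher (24) numbered 13 with normexp, 15 without a filter, 10 with the replicate block and 7 to 20 without 1 colony. G2/M genes called higher (32) numbered 50 in the authors' table, 16 with the replicate block and 11 to 34 without 1 colony, and those called lower 1 with normexp and 1 to 2 without 1 colony. The p53 arrest targets called lower (15) numbered 7 with the replicate block and 9 to 15 without 1 colony. Each of these list counts was 0 in limma with the slide block or the Y-linked covariate. With the slide as a random effect, 24 S phase and 33 G2/M genes were called higher and 15 p53 arrest targets lower. With normexp, which adds 50 units to each signal, 782 of 806 calls kept their direction. Among named genes it reversed for Cdkn2a (0.10; signals of 18 to 51.5 and 2.25 to 3.54) and Dsg4 (0.17). The cause of these shifts was not tested. Medians of the S phase, G2/M and p53 arrest lists kept their sign under every scaling tried.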
